A study of Homo sapiens with 18 samples.

Results

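The genes of 10 secreted proteins of the extracellular matrix were followed across the MCF10 breast cancer progression model, namely SPARC, SPP1, TNC, POSTN, VCAN, THBS1, THBS2, DCN, LUM and BGN. They were chosen by gene symbol, and all 10 were among the 35933 genes with normalized counts. Matricellular proteins are secreted into the matrix but do not build its fibres. They bind collagens, growth factors and cell surface receptors, and in breast tissue they are largely made by stromal cells and by tumors in which the stroma is remodeled. SPARC binds collagen and calcium, osteopontin (SPP1) is an acidic ligand of integrins and CD44, tenascin-C (TNC) and periostin (POSTN) are induced during wound repair, and the thrombospondins (THBS1 and THBS2) bind CD36 and CD47. The small leucine-rich proteoglycans decorin (DCN), biglycan (BGN) and lumican (LUM) bind collagen fibrils, with decorin also binding TGF-beta, while versican (VCAN) is a large chondroitin sulfate proteoglycan that binds hyaluronan.

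The libraries came from 3 breast epithelial lines, written MCF10-A, MCF10-AT1 and MCF10-CA1H in the sample labels. MCF10A is spontaneously immortalized and not tumorigenic, MCF10AT1 is MCF10A carrying a stably integrated mutant HRas, and MCF10CA1h came out of MCF10AT1 after repeated passage as xenografts in mice, so the HRas transgene entered both of the later lines. In each line a negative control CRISPR line was compared with a line labelled METTL3 knockdown, made by transient CRISPR/Cas9 against exon 1 of the gene for the main m6A RNA methyltransferase, followed by sorting and growth from single cells. All lines were grown in the same medium with horse serum, insulin, hydrocortisone, cholera toxin and epidermal growth factor, and each group had 3 libraries, with the letters a, b and c. Each group is therefore 1 CRISPR line, and its spread does not include the spread between clones. No label says that the 3 libraries came from separate cultures, so the p-values measure only the spread between these libraries.

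Over all genes, the normalized counts of a library summed to between 21347352 and 31681834, the number of reads behind a value is unknown, and no library duplicated another. Each library correlated with the mean of the other replicates of its group with r between 0.914 and 0.985 (15897 genes), and the lowest r belonged to negative MCF10AT1 replicate c. Negative MCF10AT1 replicate b had the highest sum and the fewest genes above 0, with 20121 against 22669 to 26410 in the other libraries. METTL3 RNA had a mean of 632 ± 154 (SD, n = 3) in negative MCF10A and 809.9 ± 261 in the labelled knockdown, 929.9 ± 111 and 823 ± 75.2 in MCF10AT1, and 1135 ± 132 and 804 ± 52.3 in MCF10CA1h. Only in MCF10CA1h did the knockdown libraries all lie below the control libraries, with a log2 difference of -0.49 (SE 0.12, adjusted p = 0.0234 from limma), which was lost without negative replicate c (adjusted p = 0.0906), without knockdown replicate b (0.0854), with no intensity trend in limma (0.0742) and in a fit of all 18 libraries (0.501). In MCF10A and MCF10AT1 the groups overlapped, so "knockdown" below is the name given by the labels. An edit that stops the protein can leave the RNA, which was all that was measured here. The paper reported METTL3 protein knockdown by Western blot in each line, moderate in MCF10CA1h, with a smaller but retained decrease of METTL3 RNA by real-time PCR. In MCF10A no such decrease was seen here, as the knockdown mean was the higher and the groups overlapped. The paper's knockdown candidates in MCF10A differed in depletion, and it does not say which candidate was sequenced. In its assay of total RNA, m6A fell significantly in MCF10AT1 and MCF10CA1h but not in MCF10A.

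Epithelial markers summed to at least 64822 normalized counts in every library, which is the cell type the labels give. Markers of other cells were mixed. PTPRC and CD3E of leukocytes had group means of at most 2.2 and 0.687 normalized counts, and VWF and CDH5 of endothelial cells of at most 3.5 and 2.14, while PECAM1 of the endothelial list had group means between 43.4 and 517, KDR and TEK had at most 18.5 and 18.8, both in negative MCF10A, and CD14 and CD68, which macrophages and also other cells express, were present in every group.

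The members lie on 7 autosomes and the X chromosome. In hg38, with GENCODE v44 gene bounds, SPARC lies at chr5:151661096-151686975 on the minus strand and VCAN at chr5:83471618-83582303 on the plus strand. SPP1 (chr4:87975667-87983532), THBS1 (chr15:39581079-39599466) and BGN (chrX:153494980-153509546) are on plus strands, and TNC (chr9:115019575-115118207), POSTN (chr13:37562583-37598844) and THBS2 (chr6:169215780-169254050) are on minus strands. DCN (chr12:91140484-91183217) and LUM (chr12:91102629-91111494) are neighbors on the minus strand, separated by 28989 bases with no protein-coding gene between them. The gene bounds of 7 members overlap another annotated gene, and whether the authors' quantification used strand is not given in the sources used here. FSIP1 overlaps THBS1 on the opposite strand and had between 1.55 and 426.64 normalized counts, HAUS7 overlaps BGN on the opposite strand and had between 101.28 and 974.2, and the noncoding RNAs that overlap the others had at most 60.58.

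The sequences before the gene starts are shown for the members with the largest differences in MCF10AT1, SPARC, SPP1 and BGN, and for THBS1, whose mean there differed by less than its spread. They are RefSeq promoter windows (GRCh38.p14), read in the direction of the gene and ending where the first of the RefSeq and GENCODE genes starts. Capitals mark matches on either strand to TATAAA (the TATA box), CCAAT (bound by NF-Y), TGANTCA (bound by AP-1), GGAATG (bound by TEAD factors) or GGGCGG (bound by Sp1).
SPARC (chr5:151686976-151687165, minus strand): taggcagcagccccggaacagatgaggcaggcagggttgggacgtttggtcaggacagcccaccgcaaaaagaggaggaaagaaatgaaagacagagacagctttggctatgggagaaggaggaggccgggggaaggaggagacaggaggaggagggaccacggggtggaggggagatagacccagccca
SPP1 (chr4:87975464-87975666, plus strand): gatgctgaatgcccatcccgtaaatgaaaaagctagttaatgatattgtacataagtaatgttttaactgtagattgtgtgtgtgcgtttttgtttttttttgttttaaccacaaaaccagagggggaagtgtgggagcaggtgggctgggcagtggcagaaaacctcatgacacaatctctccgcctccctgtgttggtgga
BGN (chrX:153494730-153494979, plus strand): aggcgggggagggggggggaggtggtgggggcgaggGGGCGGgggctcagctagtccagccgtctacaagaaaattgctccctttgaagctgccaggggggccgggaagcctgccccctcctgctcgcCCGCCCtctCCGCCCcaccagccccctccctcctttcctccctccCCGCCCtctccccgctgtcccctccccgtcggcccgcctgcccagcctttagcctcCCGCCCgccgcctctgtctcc
THBS1 (chr15:39580829-39581078, plus strand): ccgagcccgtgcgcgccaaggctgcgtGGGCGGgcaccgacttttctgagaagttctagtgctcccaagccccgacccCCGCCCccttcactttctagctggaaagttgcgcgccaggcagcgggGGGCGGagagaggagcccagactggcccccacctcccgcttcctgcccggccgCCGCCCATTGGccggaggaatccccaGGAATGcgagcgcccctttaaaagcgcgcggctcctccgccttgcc
The stretch before BGN holds 5 matches to GGGCGG, that before THBS1 holds 4 matches to GGGCGG, 1 to CCAAT and 1 to GGAATG, with a GGGCGG match and the CCAAT match running into each other, and those before SPARC and SPP1 hold none, although a GGAATG match lies 17 bases before the RefSeq start of SPARC, inside its GENCODE gene. RefSeq windows, from 250 bases before to 50 bases after the start, were found for 8 members. In these windows GGGCGG was found for 4 of 8 members and in 45.0% of 35116 promoters, TATAAA for 2 of 8 and in 11.5%, GGAATG for 3 of 8 and in 14.0%, CCAAT for 1 of 8 and in 34.6%, and TGANTCA for 1 of 8 and in 7.7%. A match is a run of letters and not a measured binding site.

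The plot of the members by library shows 3 kinds of pattern. SPARC, SPP1, LUM and BGN went from group means under 20 normalized counts to far higher levels in other groups, TNC, DCN, THBS1 and VCAN were present in every library, POSTN was highest in the MCF10A knockdown, with group means of at most 33.8 elsewhere, and THBS2 was highest in both MCF10A groups, with group means of at most 1.71 elsewhere. Normalized counts are not divided by transcript length, so levels are compared between groups and not between genes.

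**Figure D1:**
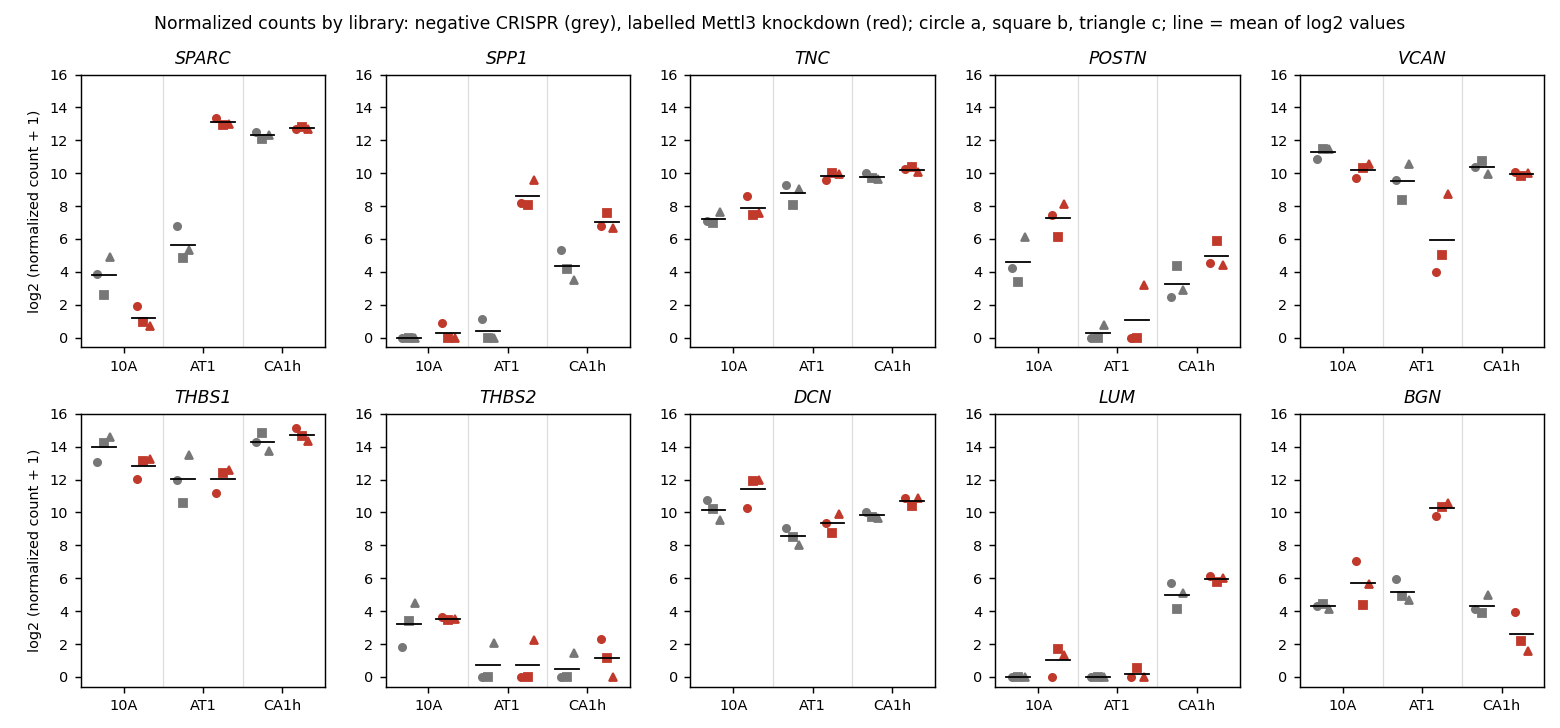
Each panel plots 1 gene, with log2(normalized count + 1) on the vertical axis and the 3 lines on the horizontal axis, grey for negative CRISPR and red for labelled knockdown, 3 libraries each (circle a, square b, triangle c), with a bar at the mean of the log2 values. SPARC goes from at most 107.64 in the negative MCF10AT1 libraries to at least 7686 in the knockdown libraries, and SPP1 and BGN also stand apart there, while SPARC is already high in both groups of MCF10CA1h.

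The first comparison asks how the members differ between the stages of the model before METTL3 is targeted. Between the negative control lines SPARC and TNC were higher in the later stages, LUM was found only in MCF10CA1h libraries among the controls, and DCN, VCAN and POSTN were lower in MCF10AT1 than in MCF10A. Of the 8 members tested, 5 differed between MCF10AT1 and MCF10A (2 higher, 3 lower), 3 between MCF10CA1h and MCF10A (all higher) and 5 between MCF10CA1h and MCF10AT1 (all higher). Among all 15652 genes tested, 28.1% differed in the first comparison (13.3% higher, 14.7% lower), 37.8% in the second (19.0% higher, 18.8% lower) and 21.8% in the third (11.0% higher, 10.8% lower). The median log2 difference of the tested members was -0.81, 0.19 and 1.78, against -0.014, -0.057 and 0.047 for all genes. A gene counts as different here when its adjusted p (Benjamini-Hochberg, limma, values taken as log2 after adding 1) was under 0.05, and it was tested when its mean over the libraries compared was at least 10. LUM and POSTN, both in these counts, reached that minimum only through MCF10CA1h and MCF10A, respectively.

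SPARC had 13.8, 4.97 and 28.4 normalized counts in negative MCF10A replicates a, b and c, 107.64, 27.2 and 39.5 in negative MCF10AT1, and 5841, 4354 and 5079 in negative MCF10CA1h. The last 3 libraries lay far above the others, and the ranges of MCF10A and MCF10AT1 overlapped. MCF10CA1h was 324-fold above MCF10A by the group means (log2 difference 8.52, SE 0.61, adjusted p = 4.27e-05) and 87.6-fold above MCF10AT1 (6.66, SE 0.61, adjusted p = 0.000176). The difference between MCF10AT1 and MCF10A was small beside these and near the threshold (log2 difference 1.86, SE 0.61, adjusted p = 0.0477), and it was lost without negative MCF10A replicate a (adjusted p = 0.0714) or b (0.158) or negative MCF10AT1 replicate a (0.152). It was also lost with no minimum (adjusted p = 0.0635), with no intensity trend in limma (0.0629) and with equal library sums (0.0704).

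TNC, a large glycoprotein that keeps cells from adhering firmly to fibronectin, had 136, 124 and 199 normalized counts in negative MCF10A, 629, 268 and 526 in negative MCF10AT1 and 1042, 824 and 803 in negative MCF10CA1h. None of the 3 groups overlapped. TNC was higher than in MCF10A by 1.57 in MCF10AT1 (log2 difference, SE 0.34, adjusted p = 0.0111) and by 2.55 in MCF10CA1h (SE 0.34, adjusted p = 0.000703), while the step from MCF10AT1 to MCF10CA1h did not pass the test (0.98, SE 0.34, adjusted p = 0.0633).

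LUM was listed at 0 in all 6 negative libraries of MCF10A and MCF10AT1 and had 52.3, 16.3 and 33.2 normalized counts in negative MCF10CA1h. All 3 MCF10CA1h libraries lay above the rest (limma, adjusted p = 0.000728 against MCF10A and 0.00109 against MCF10AT1). LUM reached the minimum mean of this fit only through MCF10CA1h, so these p-values are not separate support. No fold is given for LUM against groups listed at 0. Its neighbor DCN was present in all 3 lines, with 1745, 1181 and 753 in MCF10A, 538, 369.5 and 264 in MCF10AT1 and 1056, 857 and 825 in MCF10CA1h. The MCF10AT1 libraries were the lowest and did not overlap with either other line. DCN was lower in MCF10AT1 than in MCF10A (log2 difference -1.63, SE 0.34, adjusted p = 0.0105) and higher in MCF10CA1h than in MCF10AT1 (1.27, SE 0.34, adjusted p = 0.0271), the latter being lost without negative MCF10CA1h replicate a (adjusted p = 0.101), b (0.0771) or c (0.0688).

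VCAN had 1900.4, 2855 and 2824 normalized counts in negative MCF10A, 770.4, 336 and 1480.1 in negative MCF10AT1 and 1331, 1744 and 1007 in negative MCF10CA1h. MCF10A lay above both other lines, which overlapped with each other. The log2 difference was -1.77 between MCF10AT1 and MCF10A (SE 0.47, adjusted p = 0.0231; 0.0836, 0.0853 and 0.0643 without negative MCF10A replicate b or c or negative MCF10AT1 replicate a) and -0.90 between MCF10CA1h and MCF10A (SE 0.47, adjusted p = 0.151). The first of these was also lost in the joint fit of 18 libraries (adjusted p = 0.0917).

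POSTN, which binds integrins and collagen, had 18.2, 9.39 and 69.5 normalized counts in negative MCF10A, 0, 0 and 0.73 in negative MCF10AT1 and 4.48, 19.3 and 6.5 in negative MCF10CA1h. It was all but absent from MCF10AT1, and the other 2 lines overlapped. The log2 difference was -4.33 between MCF10AT1 and MCF10A (SE 0.81, adjusted p = 0.00686) and 2.97 between MCF10CA1h and MCF10AT1 (SE 0.81, adjusted p = 0.029), which did not hold with a pseudocount of 5 (1.4, adjusted p = 0.119) or without negative MCF10CA1h replicate a, b or c or negative MCF10AT1 replicate a (adjusted p between 0.0527 and 0.122). POSTN reached the minimum mean of this fit only through MCF10A, so the p-value against MCF10A is not separate support.

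THBS1, which activates latent TGF-beta and holds back angiogenesis, had 8664, 19131 and 24477 normalized counts in negative MCF10A, 4033, 1508 and 11515 in negative MCF10AT1 and 19848, 29619 and 13935 in negative MCF10CA1h. The MCF10AT1 libraries spread over several fold and overlapped with MCF10A but not with MCF10CA1h. THBS1 was higher in MCF10CA1h than in MCF10AT1 (log2 difference 2.29, SE 0.67, adjusted p = 0.0361), which held in 1 of the 6 fits that left out a library, the one without negative MCF10AT1 replicate c, with adjusted p from 0.0646 to 0.128 in the other fits. It was also lost with no intensity trend in limma (adjusted p = 0.0546) and with equal library sums (0.0533). BGN was between 13.8 and 61.1 in the 9 negative libraries and passed the test in none of the 3 comparisons (adjusted p between 0.164 and 0.959), although all its MCF10AT1 libraries lay above those of MCF10A.

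SPP1 and THBS2 were below the minimum mean in the negative controls. SPP1 was listed at 0 in all negative MCF10A libraries, at 1.18, 0 and 0 in negative MCF10AT1 and at 39.0, 17.3 and 10.2 in negative MCF10CA1h, so the MCF10CA1h libraries lay above the rest. With no minimum, its adjusted p was 0.000951 against MCF10A and 0.00252 against MCF10AT1. THBS2, a relative of THBS1 made by fibroblasts, had 2.58, 9.37 and 21.6 in negative MCF10A and at most 3.26 in the other negative libraries. With no minimum, its log2 difference between MCF10CA1h and MCF10A was -2.75 (SE 0.82, adjusted p = 0.0404) and that between MCF10AT1 and MCF10A was -2.54 (SE 0.82, adjusted p = 0.0725).

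The comparison within MCF10AT1 asks what targeting METTL3 was accompanied by in the HRas-transformed line. SPARC, SPP1 and BGN rose from means of 58.1, 0.393 and 38.4 normalized counts to 8810.3, 441 and 1243, and no other member passed the test. Of 7 members tested 3 were higher and none lower, against 13.0% of 16050 genes tested (7.07% higher, 5.96% lower). SPP1, counted among these 3, reached the minimum only through the knockdown libraries. The median log2 difference of the tested members was 1.04, against 0.021 for all genes. POSTN, THBS2 and LUM were below the minimum, with at most 8.32, 3.74 and 0.46 normalized counts in any MCF10AT1 library.

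SPARC had 107.64, 27.2 and 39.5 normalized counts in the negative libraries and 10619.55, 7686 and 8125 in the knockdown libraries a, b and c. The lowest knockdown library was far above the highest control. The mean rose from 58.1 ± 43.3 (SD, n = 3) to 8810.3 ± 1582, or 152-fold, with a log2 difference of 7.45 (SE 0.48, adjusted p = 6.66e-05). The knockdown level was also above both groups of MCF10CA1h, whose highest library had 7037. SPP1 had 1.18, 0 and 0 in the negative libraries and 288, 262 and 773 in the knockdown libraries. All 3 knockdown libraries were clear of the controls, and c was the highest. The log2 difference was 8.23 (SE 0.66, adjusted p = 0.000174), a size that depends on the pseudocount and was between 6.2 and 9.02 in the other settings, since the controls were at or near 0. SPP1 reached the minimum mean of this fit only through the knockdown libraries, so this p-value is not separate support.

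BGN had 61.1, 29.2 and 24.97 normalized counts in the negative libraries and 899.9, 1305 and 1525 in the knockdown libraries. The groups were far apart, and no other group of the 6 reached the level of the knockdown, the highest library elsewhere having 133. The mean rose from 38.4 ± 19.8 to 1243 ± 317 (SD, n = 3), or 32.4-fold, with a log2 difference of 5.06 (SE 0.43, adjusted p = 0.000232). HAUS7, the gene that overlaps it on the opposite strand, had 538 ± 397 in the controls and 709 ± 162 in the knockdown. The rises of SPARC, SPP1 and BGN were past the threshold in all 9 other settings and in all 6 fits that left out a library.

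TNC and VCAN depended on how the replicates were treated. TNC had 629, 268 and 526 in the negative libraries and 767, 1024 and 989.9 in the knockdown libraries, with no overlap, and a log2 difference of 1.04 (SE 0.37, adjusted p = 0.108). VCAN had 770.4, 336 and 1480.1 in the negative libraries and 14.95, 31.4 and 424 in the knockdown libraries. Knockdown replicate c lay within the range of the controls, and replicates a and b lay far below. The log2 difference of VCAN was -3.59 (SE 1.13, adjusted p = 0.0754), and without knockdown replicate c it was -5.00 (adjusted p = 0.00394). The deviations of every same-letter pair correlated with r over 0.1 in MCF10AT1 and MCF10A, although MCF10AT1 knockdown a correlated more with negative b (0.251) than with negative a (0.11). With the letter as a replicate block both genes passed the test in MCF10AT1 (adjusted p = 0.038 for TNC and 0.000643 for VCAN), which made 5 of 7 members called (4 higher, 1 lower), against 24.5% of all genes with the block (13.0% higher, 11.6% lower). TNC (adjusted p = 0.0208) and VCAN (0.00274) also passed in the joint fit of 18 libraries.

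DCN had 538, 369.5 and 264 in the negative libraries and 646, 429 and 976 in the knockdown libraries, which overlapped (log2 difference 0.79, SE 0.41, adjusted p = 0.254). THBS1 had 4033, 1508 and 11515 in the negative libraries and 2287, 5366 and 6219 in the knockdown libraries, with a log2 difference of 0.04 (SE 0.70, adjusted p = 0.977), whose sign was negative with equal library sums and in 3 of the 6 fits that left out a library.

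Markers of epithelial and mesenchymal cells moved with these rises. The summed normalized count of the 15 epithelial markers was between 194427 and 327897 in the negative MCF10AT1 libraries and between 64822 and 140375 in the knockdown libraries, and 10 of 15 tested were lower and none higher, or 11 and none with the replicate block. CDH1 (E-cadherin) had a mean of 3906 ± 2051 in the controls and 40.9 ± 34.7 in the knockdown, while the keratins KRT8 and KRT18 were still at 14957 ± 5186 and 23183 ± 8292. The sum of the 13 mesenchymal markers was between 1655 and 3281 in the controls and between 5697 and 23058 in the knockdown. S100A4 had the largest mean of this list in the knockdown, 8575 ± 8000. Its groups overlapped, and limma did not call it without the block (log2 difference 1.74, adjusted p = 0.272). Of the mesenchymal markers 4 of 10 tested were higher and none lower, or 6 and none with the replicate block. The 4 called without the block were COL3A1, COL6A2, COL6A3 and THY1. Their control means were at most 8.88, so they reached the minimum only through the knockdown libraries. COL6A2 had a mean of 1116 ± 166 and THY1 of 2040.0 ± 734 (SD, n = 3) in the knockdown. PRRX1 of the same list stayed below 1 in all knockdown libraries, and COL1A2 and PDGFRA had means of 1.91 and 9.33 there. Of the other marker lists, 1 endothelial and 2 leukocyte genes reached the minimum, and limma called none, with an unadjusted p under 0.05 for 0 and 1 of them. With the replicate block 1 leukocyte marker was higher. The sum of the leukocyte markers was between 776 and 1524 in the controls and between 1972 and 2965 in the knockdown, nearly all of it from CD14 and CD68, with PTPRC at 0 in all MCF10AT1 libraries. Fewer cells of one kind and less RNA per cell cannot be told apart in bulk RNA, and the part of the marker shift in the rises of SPARC, SPP1 and BGN was not tested. The rises in SPARC, SPP1 and BGN were past the threshold with both letter-c libraries left out, a choice made after seeing the data (log2 differences of 7.35, 7.54 and 4.65).

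**Figure D2:**
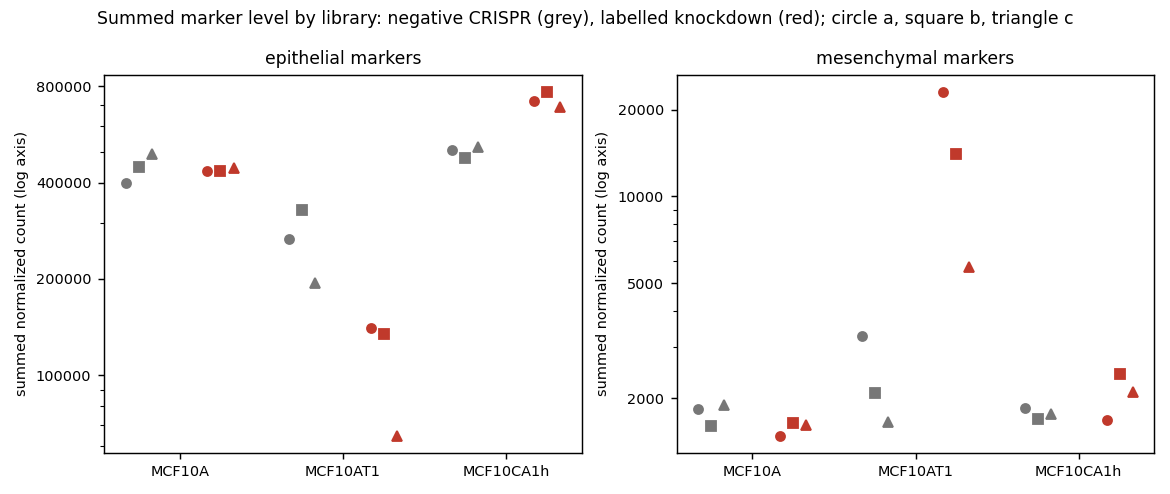
The 2 panels plot, on a log axis, the summed normalized count of 15 epithelial and 13 mesenchymal marker genes in each library of the 3 lines, grey for negative CRISPR and red for labelled knockdown (circle a, square b, triangle c). The red MCF10AT1 libraries are the lowest for the epithelial sum, at 64822 to 140375, and the highest for the mesenchymal sum, at 5697 to 23058. S100A4 had the largest mean of the mesenchymal list there, and its range overlapped with the grey MCF10AT1 libraries.

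In MCF10CA1h, the xenograft-derived line, the members that were higher in the knockdown were SPP1, DCN and, near the threshold, SPARC. Of 9 members tested 3 were higher and none lower, against 12.8% of 15127 genes tested (7.91% higher, 4.85% lower). The median log2 difference of the tested members was 0.43, against -0.019 for all genes. The rises of DCN and SPARC were under 2-fold.

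SPP1 had 39.0, 17.3 and 10.2 normalized counts in the negative libraries and 111, 192 and 101 in the knockdown libraries. All knockdown libraries were above all controls, and the mean rose from 22.2 ± 15.02 to 135 ± 50.2 (SD, n = 3), or 6.07-fold. The log2 difference was 2.69 (SE 0.45, adjusted p = 0.00402), past the threshold in all 8 other settings and in all 6 fits that left out a library. DCN had 1056, 857 and 825 in the negative libraries and 1857, 1326 and 1862 in the knockdown libraries, again with no overlap. Its mean rose 1.84-fold, from 913 ± 125 to 1682 ± 308 (log2 difference 0.87, SE 0.15, adjusted p = 0.00544). The rise of DCN held in all 6 fits that left out a library and in 7 of 8 other settings, but not in the joint fit of 18 libraries (adjusted p = 0.508).

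SPARC had 5841, 4354 and 5079 in the negative libraries and 6618, 7037 and 6583 in the knockdown libraries. The groups did not overlap, and the mean was 1.33-fold higher (log2 difference 0.42, SE 0.11, adjusted p = 0.0353). The call held in 4 of 8 other settings and in only 1 of the 6 fits that left out a library, the one without negative replicate a, with adjusted p between 0.0647 and 0.113 in the others.

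TNC, POSTN and LUM lay higher in every knockdown library than in every control library without passing the test. TNC had 1042, 824 and 803 in the negative and 1214, 1308 and 1063 in the knockdown libraries (log2 difference 0.43, SE 0.13, adjusted p = 0.0616), and it passed without negative replicate a (0.0426). POSTN had 4.48, 19.3 and 6.5 against 22.2, 58.5 and 20.6 (log2 difference 1.72, SE 0.59, adjusted p = 0.0862), and it passed without negative replicate b (adjusted p = 0.0355). LUM had 52.3, 16.3 and 33.2 against 70.7, 53.2 and 63.5 (log2 difference 1.00, SE 0.40, adjusted p = 0.131). These groups are narrowly apart, with 1 control library near the lowest knockdown library for each gene.

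BGN was low in MCF10CA1h, with 16.7, 13.8 and 30.4 in the negative and 14.8, 3.57 and 2.01 in the knockdown libraries, and its log2 difference was -1.75 (SE 0.66, adjusted p = 0.115; 0.0297 without knockdown replicate a). VCAN had 1331, 1744 and 1007 against 1066, 926 and 1029 (log2 difference -0.40, SE 0.18, adjusted p = 0.17; 0.0362 without negative replicate c). THBS1 had 19848, 29619 and 13935 against 35555, 25244 and 20601 (0.39, SE 0.26, adjusted p = 0.356). For all 3 genes the groups overlapped, and THBS2 was at 3.89 or less in every MCF10CA1h library. The epithelial marker sum in this line was between 478295 and 515401 in the controls and between 690659 and 768834 in the knockdown, and the mesenchymal sum between 1697 and 1848 and between 1683 and 2427. Of the epithelial markers 5 of 14 tested were higher and 1 lower, and of the mesenchymal markers 1 of 10 was higher and 1 lower. Of the leukocyte markers tested, CD14 was lower (log2 difference -1.14, adjusted p = 0.0167) and CD68 higher (1.05, adjusted p = 0.0144), and of the endothelial markers tested PECAM1 was lower (-1.20, adjusted p = 0.0389). Their part in the rises of SPP1 and DCN was not tested.

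In MCF10A, the line that is not tumorigenic, no member passed the test, and the values lay in both directions. Of 7 members tested none was called by limma, 4 had an unadjusted p under 0.05, and 2.65% of 15416 genes tested were called (1.16% higher, 1.49% lower). With the letter as a replicate block, 3 of 7 members were called, VCAN and THBS1 lower and POSTN higher, against 7.60% of all genes with the block (2.84% higher, 4.76% lower). The median log2 difference of the tested members was 0.64, against -0.003 for all genes.

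VCAN had 1900.4, 2855 and 2824 normalized counts in the negative libraries and 849, 1253 and 1498 in the knockdown libraries, with no overlap. The mean was 2.11-fold lower in the knockdown (log2 difference -1.09, SE 0.25, adjusted p = 0.0647), and with the replicate block the adjusted p was 0.00522. THBS1 had 8664, 19131 and 24477 against 4249, 8947 and 9589. Replicate a was the lowest in both groups, so the groups overlapped, but each knockdown library was lower than the control of its letter (log2 difference -1.16, SE 0.43, adjusted p = 0.203, and 0.00378 with the replicate block). POSTN had 18.2, 9.39 and 69.5 against 177, 69.2 and 284 (log2 difference 2.66, SE 0.75, adjusted p = 0.109, and 0.00587 with the replicate block). For POSTN, replicate c was the highest and b the lowest in both groups, which overlapped. Without negative replicate a, VCAN (adjusted p = 0.0183) and THBS1 (0.0288) passed with no block, and without negative replicate c, POSTN passed (0.0438).

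**Figure D3:**
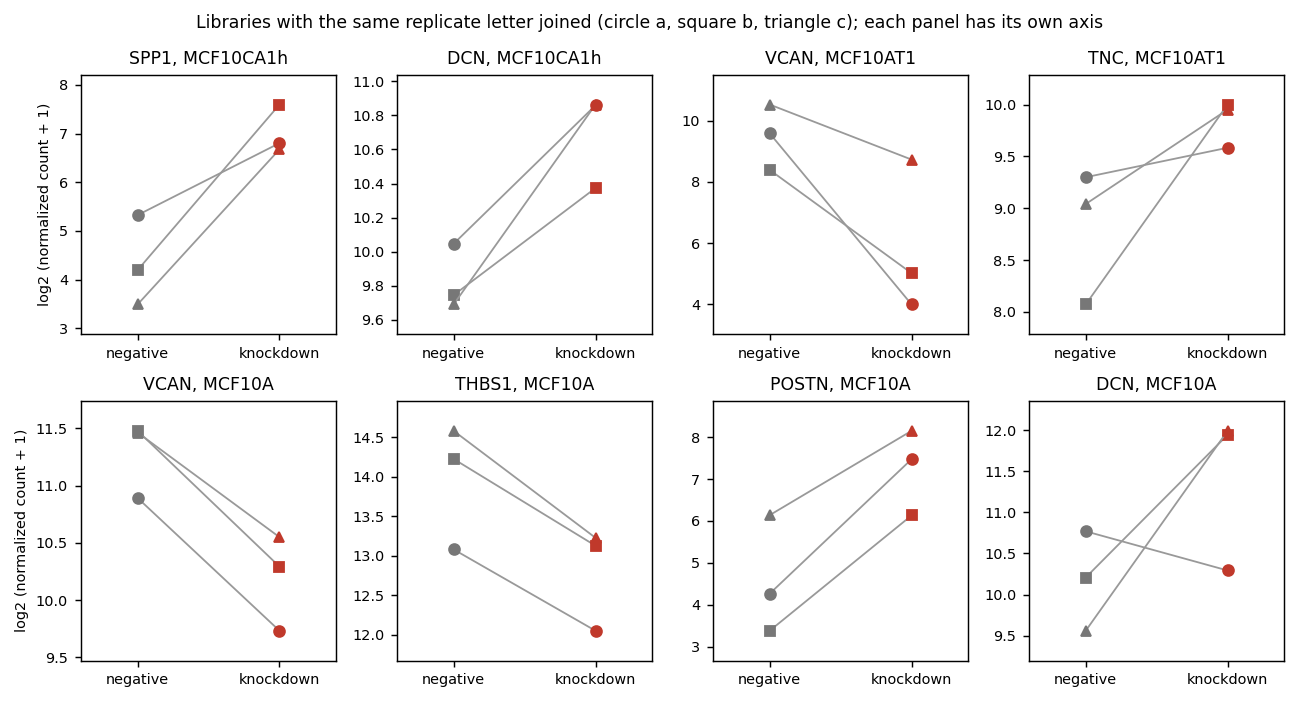
Each panel plots log2(normalized count + 1) of 1 gene in 1 line, negative CRISPR on the left and labelled knockdown on the right, with a line between the libraries of the same letter (circle a, square b, triangle c). The 8 panels were chosen after the values were seen, and the lines for VCAN and THBS1 in MCF10A run nearly parallel. Those for POSTN in MCF10A all go up, least steeply for replicate c. For DCN in MCF10A replicate a goes from 1745 down to 1253 and the others go up.

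DCN had 1745, 1181 and 753 in the negative MCF10A libraries and 1253, 3939 and 4073 in the knockdown libraries. Replicates b and c were the highest of all 18 libraries and a lay among the controls, so the difference did not pass with or without the block (log2 difference 1.23, SE 0.48, adjusted p = 0.218, and 0.156 with the replicate block). BGN had 19.2, 20.7 and 16.4 against 133, 19.8 and 48.8 (log2 difference 1.4, SE 0.63, adjusted p = 0.289). TNC had 136, 124 and 199 against 387, 173 and 193 (0.64, SE 0.35, adjusted p = 0.382). In both genes knockdown replicate a stood above the rest and at least 1 other knockdown library lay among the controls.

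SPARC, SPP1 and LUM were below the minimum in MCF10A, and THBS2 was close to it, with 2.58, 9.37 and 21.6 against 11.4, 9.82 and 10.6. SPARC had 13.8, 4.97 and 28.4 in the negative libraries and 2.86, 0.92 and 0.61 in the knockdown libraries, so that every knockdown library was lower. With no minimum its log2 difference was -2.59 (SE 0.72, adjusted p = 0.125). SPP1 and LUM had at most 0.85 and 2.29 normalized counts in any MCF10A library. The epithelial marker sum was between 399080 and 490275 in the controls and between 433189 and 445084 in the knockdown (2 of 14 tested higher, none lower, or 2 and 4 with the replicate block). None of 6 mesenchymal markers tested was called by limma, where 4 had an unadjusted p under 0.05, and with the replicate block 1 was higher and 1 lower. Of the 3 endothelial and 2 leukocyte markers tested none was called by limma, all 5 had an unadjusted p under 0.05, and with the block 1 endothelial marker was higher and 1 leukocyte marker lower.

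**Figure D4:**
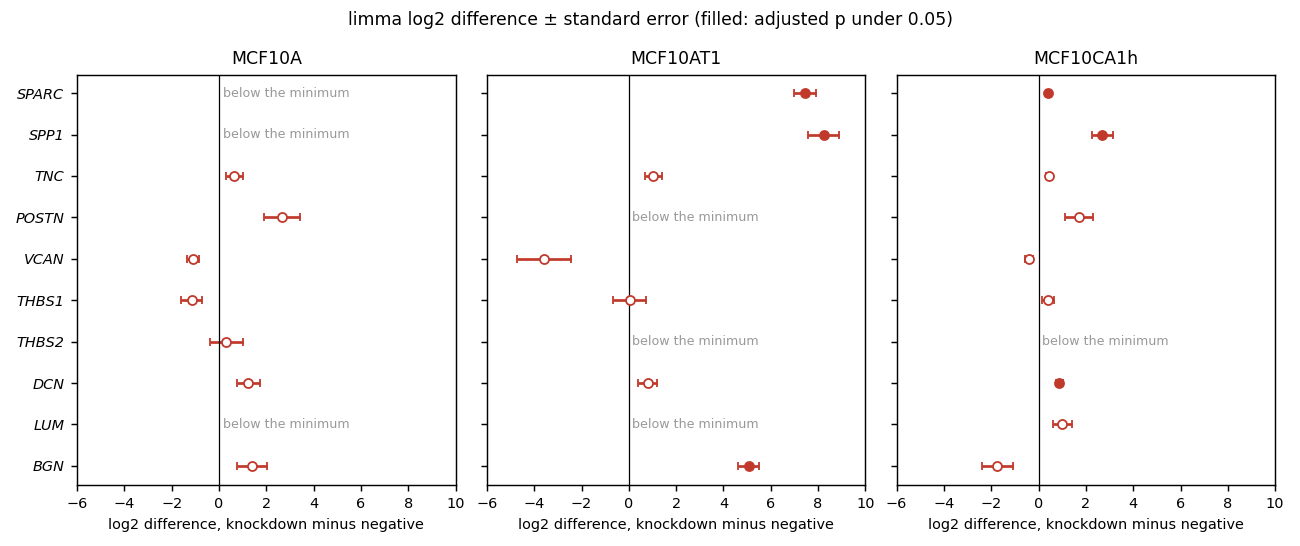
For each line a panel plots the limma log2 difference of each member, knockdown minus negative, with its standard error as a bar, 3 libraries against 3, and filled points mark an adjusted p under 0.05. SPARC (7.45), SPP1 (8.23) and BGN (5.06) stand far to the right in MCF10AT1, the filled points in MCF10CA1h lie at 0.42, 0.87 and 2.69, and none is filled in MCF10A.

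The difference of the knockdown effect between lines was tested itself, in 1 fit of the 18 libraries. SPARC, SPP1 and BGN differed between MCF10AT1 and each of the other lines, and SPARC also between MCF10CA1h and MCF10A. Of 9 members tested, 3 differed between MCF10AT1 and MCF10A, 1 between MCF10CA1h and MCF10A and 3 between MCF10CA1h and MCF10AT1, against 21.6%, 5.34% and 18.2% of 15897 genes tested. Each line enters 2 of these comparisons, so they share libraries.

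For SPARC the effect in MCF10AT1 exceeded that in MCF10A by 10.04 on the log2 scale (SE 0.72, adjusted p = 5.22e-08), and the effect in MCF10CA1h minus that in MCF10AT1 was -7.03 (SE 0.72, adjusted p = 2.83e-06). For SPP1 the corresponding values were 7.93 (SE 0.80, adjusted p = 2.34e-06) and -5.54 (SE 0.80, adjusted p = 0.000101), and for BGN they were 3.66 (SE 0.91, adjusted p = 0.00769) and -6.81 (SE 0.91, adjusted p = 4.34e-05). SPP1 was at or near 0 in every MCF10A library and SPARC was low there, and both reach the minimum of this fit only through the other lines. The 7.93 of SPP1 thus restates its 8.23 in MCF10AT1, and the differences of SPARC from MCF10A include a log2 difference of -2.59 between low values in that line. These 6 differences held in all 7 other settings and in all 12 fits that left out a library. The effect on SPARC in MCF10CA1h exceeded that in MCF10A by 3.0 (SE 0.72, adjusted p = 0.0217), but this was lost with a pseudocount of 5 (adjusted p = 0.0599) and without negative MCF10A replicate c (0.0613), knockdown MCF10A replicate c (0.0588), negative MCF10CA1h replicate b (0.0568) or c (0.0511) or knockdown MCF10CA1h replicate b (0.0596), and it was at 0.05 without knockdown MCF10A replicate b.

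No difference between lines was detected for DCN, whose knockdown mean was higher in all 3 lines (adjusted p between 0.643 and 0.943), for TNC (0.399 to 0.888) or for THBS1 (0.346 to 0.824). BGN came near the threshold between MCF10CA1h and MCF10A (-3.14, SE 0.91, adjusted p = 0.0541). For VCAN the effect in MCF10AT1 was lower than in MCF10A (MCF10AT1 minus MCF10A, log2 difference -2.5, SE 1.14, adjusted p = 0.136), which passed with the replicate block (0.0195) and without knockdown MCF10AT1 replicate c (0.000329).

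Ordered by group means, the 6 groups ranked differently for different members. For SPARC the order from high to low was MCF10AT1 knockdown, MCF10CA1h knockdown, MCF10CA1h negative, MCF10AT1 negative, MCF10A negative and MCF10A knockdown, and only MCF10AT1 negative and MCF10A negative overlapped as neighbors. SPP1 had the same first 4 groups, with no overlap among them. For THBS1 and DCN every pair of neighbors in the order overlapped, THBS1 being led by MCF10CA1h knockdown and DCN by MCF10A knockdown. BGN was led by MCF10AT1 knockdown, VCAN by MCF10A negative, POSTN by MCF10A knockdown and TNC and LUM by MCF10CA1h knockdown, each with no overlap with the next group. THBS2 was led by both MCF10A groups, which overlapped with each other.

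The other genes of the pathway were taken from 5 lists, namely other matricellular proteins, other matrix proteoglycans and link proteins, enzymes that build chondroitin and dermatan sulfate chains, proteases of these proteins, and their receptors. In MCF10AT1, where 7.07% of all genes were higher and 5.96% lower, 3 of 13 other matricellular genes tested were higher and 1 lower, with a median log2 difference of -0.19 beside 0.021 for all genes. With the replicate block the share of all genes called was 7.60% in MCF10A and 24.5% in MCF10AT1. FSTL1, a secreted glycoprotein of the SPARC family, was called in all 3 lines, with means of 241 ± 49.9 and 72.2 ± 31.2 in MCF10A (log2 difference -1.80, SE 0.36, adjusted p = 0.0448), 112 ± 42.8 and 1591 ± 443 in MCF10AT1 (3.85, SE 0.38, adjusted p = 0.000475) and 455 ± 242 and 1098 ± 63.3 (SD, n = 3) in MCF10CA1h (1.39, SE 0.28, adjusted p = 0.0101). It was thus lower in the knockdown of MCF10A and higher in those of the later lines. SPOCK1, a proteoglycan related to SPARC, rose in MCF10AT1 from 37.6 ± 42.6 to 1817 ± 1214 (log2 difference 6.85, SE 1.43, adjusted p = 0.0161), and SMOC1, another SPARC relative, fell there from 14907 ± 594 to 1974 ± 347 (-2.93, SE 0.25, adjusted p = 0.000239). The SPARC relatives did not move together. TNXB, a relative of TNC, was at 98.8 ± 20.5 and 301 ± 57.3 in MCF10AT1 (1.60, SE 0.35, adjusted p = 0.019).

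Among the other matricellular genes 2 of 12 tested were lower and none higher in MCF10A (median -0.05), or 3 and none with the replicate block, and 2 were higher and 2 lower of 11 in MCF10CA1h (median -0.30). No other proteoglycan or link protein was called in any line, among 4, 5 and 3 tested of 19 listed in MCF10A, MCF10AT1 and MCF10CA1h, with 0, 1 and 0 of them at an unadjusted p under 0.05 by limma, and most were below the minimum. With the replicate block 1 of them was higher in MCF10AT1. KERA, EPYC, OPTC and NCAN, which are on that list, were not analysed here.

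Of the 21 chain-building enzymes tested in each line, 6 were higher and none lower in MCF10AT1 (median 0.62), or 7 and 1 with the replicate block, 3 were higher and 3 lower in MCF10CA1h (median -0.07) and 1 was higher in MCF10A (median -0.12), or 2 with the replicate block. B3GAT3 and B4GALT7 add sugars of the linker by which the chain is attached to the core protein. B3GAT3 rose in MCF10AT1 from 846 ± 272 to 3125 ± 412 (log2 difference 1.93, SE 0.31, adjusted p = 0.00513), and B4GALT7 rose in MCF10AT1 from 467 ± 118 to 1235 ± 276 (1.41, SE 0.32, adjusted p = 0.0236) and in MCF10CA1h from 641 ± 39.3 to 1073 ± 137 (0.74, SE 0.12, adjusted p = 0.00402). The sulfotransferases CHST7 and CHST15 rose in MCF10AT1 by 2.26 (SE 0.58, adjusted p = 0.0389) and 1.25 (SE 0.32, adjusted p = 0.0393).

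Of the proteases, 3 were higher and 2 lower of 10 tested in MCF10AT1 (median 0.55), or 4 and 2 with the replicate block, 2 were higher and 1 lower of 9 in MCF10CA1h (median -0.19), and none was called of 10 in MCF10A (median 0.12), where 3 had an unadjusted p under 0.05 by limma and 1 was higher with the replicate block. MMP2, a gelatinase, rose in MCF10AT1 from 54.0 ± 13.8 to 1862 ± 247 (log2 difference 5.10, SE 0.32, adjusted p = 5.31e-05). It was 77.9 ± 59.7 and 399 ± 130 in MCF10A (2.63, SE 0.57, adjusted p = 0.0576) and 447 ± 87.8 and 292 ± 57.9 in MCF10CA1h (-0.61, SE 0.19, adjusted p = 0.0622). ADAMTS1, which cleaves versican, rose in MCF10AT1 (2.43, SE 0.60, adjusted p = 0.0316) and in MCF10CA1h from 44.7 ± 27.1 to 219 ± 21.6 (2.49, SE 0.43, adjusted p = 0.00495). In MCF10AT1 ADAMTS1 had a control mean of 8.65 and reached the minimum only through the knockdown libraries. BMP1, which cleaves the propeptides of biglycan and of collagens, rose in MCF10AT1 by 1.15 (SE 0.25, adjusted p = 0.0196), and PCOLCE, its enhancer, fell by 1.76 (SE 0.41, adjusted p = 0.0259).

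Receptors moved in both directions. In MCF10AT1 7 of 15 tested were higher and 2 lower (median 1.22), or 8 and 2 with the replicate block, in MCF10CA1h 5 of 14 were higher and 2 lower (median 0.24), and in MCF10A 1 of 15 was lower (median -0.38), or 5 with the replicate block. Over all genes 13.0%, 12.8% and 2.65% were called in these lines, and 7.60% with the block in MCF10A. CD36, a thrombospondin receptor, rose in MCF10AT1 from 6.79 ± 8.52 to 1040 ± 244 (log2 difference 7.74, SE 0.84, adjusted p = 0.000721) and fell in MCF10CA1h from 253 ± 47.3 to 48.7 ± 22.0 (-2.44, SE 0.33, adjusted p = 0.00127). The integrin subunit ITGB3, which pairs with alpha V to bind osteopontin, went from 0.867 ± 1.5 to 339 ± 276 in MCF10AT1 (7.38, SE 0.88, adjusted p = 0.00113) and was 32.1 ± 37.0 and 0.407 ± 0.704 in MCF10A (-4.05, SE 0.86, adjusted p = 0.0517). CD36 and ITGB3, both counted as higher in MCF10AT1, reached the minimum there only through the knockdown libraries. In MCF10A ITGB3 reached it only through the controls, and none of these p-values is separate support. ITGB6, the integrin subunit found in epithelia, fell in MCF10AT1 from 1540.0 ± 534 to 22.3 ± 1.28 (-5.99, SE 0.37, adjusted p = 4.8e-05). SDC1, syndecan-1, fell there from 10979 ± 1033 to 1068 ± 496 (-3.48, SE 0.38, adjusted p = 0.000779) and rose in MCF10CA1h from 10109 ± 499 to 14949 ± 650 (0.56, SE 0.08, adjusted p = 0.0023).

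**Figure D5:**
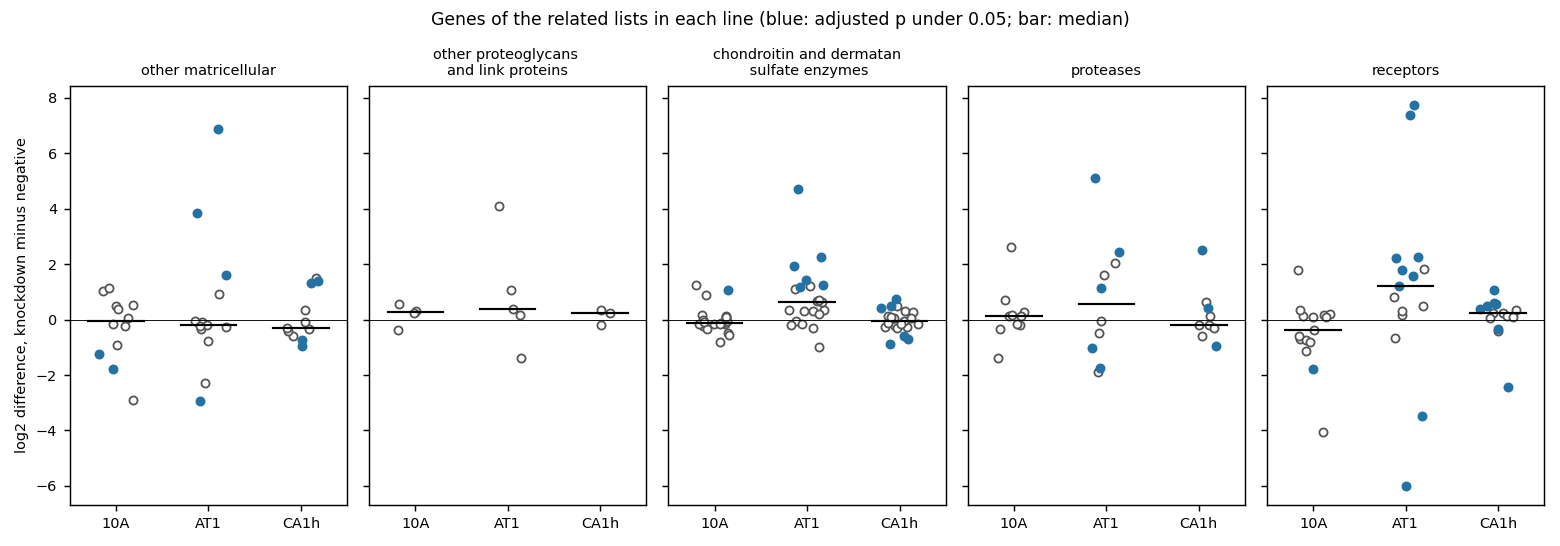
Each panel plots 1 list of related genes, with the limma log2 difference, knockdown minus negative, of each tested gene on the vertical axis and the 3 lines on the horizontal axis, 3 libraries against 3. Blue points have an adjusted p under 0.05 and the bar is the median, which for the receptors lies at 1.22 in MCF10AT1, above -0.38 in MCF10A and 0.24 in MCF10CA1h.

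The genes whose pattern over the 18 libraries was most like that of a member were found by Pearson's r of the log2 values among 12453 genes with a mean of at least 50. The libraries of a group share their cell line and CRISPR line, so r mostly follows the 6 group levels and is a description. MDK (midkine, a heparin-binding growth factor, r = 0.974), KCNG1 (0.973) and PEX14 (0.973) were most like SPARC, A1BG (0.968), BTN2A1 (0.967) and ICAM1 (0.967) most like SPP1, and ABCA2 (0.939), GBA2 (0.938) and EFNA5 (0.937) most like BGN. USP11 (0.984), IRF1 (0.934) and APMAP (0.934) were nearest to TNC, ATP2C1 (0.962), TMTC2 (0.96) and TMCC1 (0.959) to VCAN, and ACTN4 (0.946), WSB2 (0.927) and EIF4E (0.924) to THBS1. DCN was followed less closely, by AREG (0.858), LPXN (0.821) and SH3RF2 (0.809), as was POSTN, by NUDT12 (0.888) and the pseudogene VDAC1P8 (0.871), whose reads may be shared with near-identical copies.

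METTL3 places m6A mostly at the sequence GGACT and its variants, so the number of GGACT in the canonical GENCODE transcript of each member was counted, a description chosen after the data were seen. THBS1 had 16 in 7789 bases, or 2.054 per kb, and SPARC 7 in 3451 bases, or 2.028 per kb, above 91.3% and 91.0% of 19689 protein-coding transcripts, whose median was 0.93 per kb. LUM had none in 2671 bases. TNC (1.412 per kb), SPP1 (1.281), BGN (1.275), POSTN (1.212) and DCN (1.168) lay above the median, and VCAN (0.81) and THBS2 (0.702) below it. A relation between these densities and the response of the members was not tested. No m6A was measured in these files.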

How the data were processed

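RNA of 18 libraries was quantified by the authors with Kallisto 0.46.1 against the human transcriptome (hg38), summed to genes with tximport and normalized with DESeq2 1.26.0 (R 4.1.1), and the deposited values are these normalized counts, a signal that is not raw counts and not per length. The labels name polyA RNA, whereas the methods describe a stranded total RNA kit with ribosomal RNA depletion. Whole reads could not be recovered, since 20.2% to 42.7% of the values below 6 lay within 0.02 of a whole multiple of the library's most frequent low value, so no count model was run, depth per gene is unknown and no counting error is given.

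Values were tested here on log2(value + 1) with limma 3.58.1 (intensity trend, R 4.3.3), for genes whose mean in the fitted libraries reached 10, with two-sided Benjamini-Hochberg adjusted p under 0.05. Fold changes on this scale understate those of low genes. Each line was fitted alone (3 against 3), differences between lines as interaction contrasts in 1 fit of 18 libraries, and negative controls in a fit of 9. The fits were also run on simulated data with the same spread for every gene of a line and no pairing of letters. Only genes with a control mean of at least 50 were changed there, so that run does not bear on members near 0. Other values were computed with Python 3.11.15, pandas 2.3.3 and NumPy 2.4.6. Gene symbols were found for 35894 of 35933 genes.

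Replicate letters come from the titles, which do not say what they mark. Deviations from the group means of same-letter libraries correlated with r between 0.116 and 0.221 in MCF10A, 0.11 and 0.477 in MCF10AT1 and -0.011 and 0.046 in MCF10CA1h (15897 genes), so by a limit of 0.1 for every pair the letters were taken as pairing libraries in the first 2 lines, and the result with the letter as a block is given beside theirs where it changes a call of a member or a count of a list. MCF10AT1 knockdown a correlated more with negative b (0.251) than with negative a.

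The members and lists were chosen with earlier results of these data known. All 10 members are named, with METTL3 as the target and, of each related list, up to 4 called genes with non-overlapping groups, a mean of at least 50 and the largest change. Alternatives were pseudocounts of 0.5 and 5, no minimum and a minimum of 50, no trend, equal library sums, a joint fit, the replicate block, each library left out, and, added after seeing the data, both MCF10AT1 libraries with the letter c left out. For each member with a group mean of at least 100, the 3 genes with the most similar pattern were sought, and 1 of those found is not reported here.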

Additional observations from a re-analysis of the deposited data

Results flagged for a closer look

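The knockdown effect differed between lines, by the interaction test of limma, for 7 results. SPARC differed between MCF10AT1 and MCF10A (10.04 on the log2 scale, first line minus second), between MCF10CA1h and MCF10A (3.0) and between MCF10CA1h and MCF10AT1 (-7.03). The knockdown mean of SPARC was 1.46 against 15.7 in the negative control of MCF10A, 8810.3 against 58.1 in MCF10AT1 and 6746 against 5091 in MCF10CA1h, so it lay below the control in the first line and above it in the later 2. SPARC was below the minimum in MCF10A, and with no minimum its difference there had an adjusted p of 0.125 from limma. SPP1 differed between MCF10AT1 and MCF10A (7.93) and between MCF10CA1h and MCF10AT1 (-5.54), and was higher in the knockdown libraries of both later lines. SPP1 was at or near 0 in every MCF10A library and reached the minimum of this fit only through the other lines. Its 7.93 thus restates the 8.23 within MCF10AT1. BGN differed between MCF10AT1 and MCF10A (3.66) and between MCF10CA1h and MCF10AT1 (-6.81). Its knockdown mean was 1243 against 38.4 in MCF10AT1 and 6.78 against 20.3 in MCF10CA1h, a difference not past the threshold in MCF10CA1h. Each of these comparisons sets 1 CRISPR line per arm against another, and the line and the clone cannot be told apart. Groups of 3 are too small for a test of single outlying libraries.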

How the results depend on the processing

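The count of members called in the knockdown against the negative control was 0 for MCF10A and 3 for each later line. With the replicate block it was 3 in MCF10A and 5 in MCF10AT1, and in the joint fit of 18 libraries it was 1, 5 and 1 in MCF10A, MCF10AT1 and MCF10CA1h. The 1 in MCF10A was SPARC, which reaches the minimum there only through the other lines. Shares over all genes are given only for the main fits and the replicate block. The counts of members in the other settings and left-out fits therefore have no background beside them. In MCF10CA1h, where the letters did not pair the libraries, the replicate block gave 3 as well, with SPARC lost (adjusted p = 0.0506) and POSTN gained (0.0273), and it called the difference of VCAN between MCF10CA1h and MCF10AT1 (3.19, adjusted p = 0.00648). Over all genes, the block moved the calls from 409 to 1172 in MCF10A, from 2091 to 3939 in MCF10AT1 and from 849 to 1283 for the effect in MCF10CA1h against MCF10A. The count of different effects between MCF10CA1h and MCF10A went from 1 to 2 with equal library sums. Between negative controls, the count for MCF10CA1h against MCF10A went from 3 to 5 with no minimum, and that for MCF10CA1h against MCF10AT1 from 5 to 3 with a minimum of 50, where fewer members are tested.

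When single libraries were left out, the counts ranged from 0 to 2 in MCF10A, from 3 to 4 in MCF10AT1 and from 2 to 4 in MCF10CA1h. The counts of different effects ranged from 3 to 4 (MCF10AT1 against MCF10A), from 0 to 2 (MCF10CA1h against MCF10A) and from 3 to 4 (MCF10CA1h against MCF10AT1), and those between negative controls from 3 to 6 (MCF10AT1 against MCF10A), 2 to 3 (MCF10CA1h against MCF10A) and 1 to 7 (MCF10CA1h against MCF10AT1). No difference past the threshold changed sign. Signs turned only for differences near 0. THBS1 in MCF10AT1 was -0.12 with equal sums and between -0.68 and 0.78 with a library left out. The difference of the knockdown effect on LUM between MCF10CA1h and MCF10A was 0.59 with a pseudocount of 5. This difference of effects was between -0.53 and 0.36 when a library was left out. With a library left out, the difference of the effect ranged from -0.43 to 0.15 for TNC (MCF10CA1h against MCF10A), from -0.39 to 1.08 for THBS1 and from -0.21 to 0.38 for DCN (both MCF10CA1h against MCF10AT1). The log2 difference of THBS2 between knockdown and control in MCF10A ranged from -0.40 to 0.37. Between negative MCF10CA1h and MCF10A the log2 difference ranged from -0.10 to 0.65 for THBS1 and from -0.28 to 0.26 for BGN. LUM, POSTN and THBS2 fell below the minimum in some of these fits, which gave no value. The causes were not tested. The unknown depth limits statements on members below 10 normalized counts, and with 3 libraries of 1 CRISPR line per group no result speaks to other clones.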
